A study of Mus musculus with 12 samples.

Results

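Ppy+Ins2+ cells are islet cells that carried RNA of 2 hormone genes above a cutoff at once, Ppy (pancreatic polypeptide) and Ins2 (one of the mouse insulin genes), and that were low for Gcg (glucagon) and Sst (somatostatin). They were chosen cell by cell on UMI counts (unique molecular identifiers, each standing for 1 captured transcript): more than 24.3 Ppy UMIs and 577 Ins2 UMIs, at most 166 Gcg UMIs and at most 26.7 Sst UMIs, all per 10000 UMIs of the cell, after leaving out cells with more than 19.1 per 10000 for Cd74, Col3a1 or Plvap (marks of immune, stromal and endothelial cells). By this rule 123 of 5982 cells were members. They were compared with 1565 Ppy-only cells and 530 Ins2-only cells, which passed the cutoff of 1 of these hormone genes alone.

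The cells came from 4 single-cell libraries of a study of the γ-cell, the Ppy-expressing cell of the islet. Islets of mice of mixed background, aged 2 months, were dissociated and sorted into YFP+ and YFP- fractions in each of 2 experiments, with islets of several mice pooled, so that the libraries are YFP+ and YFP- of experiment 1 and of experiment 2. The fractions of 1 experiment came from the same pooled islets, and each experiment used its own mice. The mice of both experiments carried the same alleles, Ppy-rtTA; R26-YFP in the single-cell labels, with a TetO-Cre transgene named in the study's methods, given DOX at 1 mg/ml in the drinking water. The age label calls the mice wild-type although they carry these alleles. rtTA, an activator that works in the presence of DOX, is made from the Ppy locus, and after recombination R26-YFP marks a cell whether or not Ppy is still on. YFP therefore records that Ppy was on at some time during DOX, and no group without DOX is among these libraries. The libraries held 11705631 (YFP+, experiment 1), 11523971 (YFP+, experiment 2), 18330975 (YFP-, experiment 1) and 10683494 (YFP-, experiment 2) UMIs.

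Islet endocrine cells are named for the hormone they make. β-cells make insulin, take up glucose through Slc2a2 (the GLUT2 transporter), package insulin with zinc brought in by Slc30a8 and release Iapp (amylin) with it, under transcription factors such as Pdx1, Nkx6-1 and Mafa. γ-cells make pancreatic polypeptide, often with the related peptide YY (Pyy), and cells with more than 1 islet hormone are known from development and from islets under stress or β-cell loss.

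The YFP+ library of experiment 1 held 73 members, the YFP+ library of experiment 2 held 36, the YFP- library of experiment 1 held 11 and that of experiment 2 held 3. Members made up 5.72% (95% exact binomial interval 4.51 to 7.14) of 1276 hormone-positive cells and 2.54% (1.79 to 3.50) of 1417 in the YFP+ libraries. In the YFP- libraries they made up 1.01% (0.504 to 1.80) of 1091 and 0.370% (0.0764 to 1.08) of 811. Both YFP+ shares lay above both YFP- shares (4.13% ± 2.25 against 0.689% ± 0.451, SD, n = 2). This order is a description, since the sort enriches Ppy and the rule uses Ppy. With 2 libraries against 2, taken as unpaired, an exact permutation test cannot go below p = 0.33. Pairing the fractions by experiment would raise that limit, and the SDs do not use the pairing. The intervals cover counting error only. Of 19 cell barcodes that occurred in more than 1 library, 0 belonged to a member.

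In the YFP+ libraries the Ppy cutoff set apart only 1 Ins2-high cell. All but 1 of the 74 Ins2-high cells of experiment 1 and all 36 of experiment 2 passed it, and so did all 20 and all 81 cells left out as immune, stromal or endothelial, which should make no pancreatic polypeptide. In the YFP- libraries 11 of 448 (2.46%) and 3 of 95 (3.16%) Ins2-high cells passed it, against 0 of 229 and 0 of 518 non-endocrine cells. Ppy-positive by the rule thus means in the YFP+ libraries a level that cells of other types had as well. The level in the non-endocrine cells of the same library is called background here, and its source was not tested. Members of these libraries held a median of 102 and 83.5 Ppy UMIs per cell (ranges 36 to 4901 and 26 to 5950). The non-endocrine cells held a median of 24 and 25, with a highest value of 51 and 66, and Ppy-only cells held 2042 and 1418. By UMIs per cell most members thus lay between the background and the Ppy-only level, but members had more UMIs in all than the non-endocrine cells. Per 10000 UMIs, which takes out the total of the cell, the median Ppy level was 98.0 and 156 in members, 71.5 and 105 in non-endocrine cells and 2574 and 2412 in Ppy-only cells. On that scale the non-endocrine cells ranged from 33.7 to 152 and from 35.0 to 214, which takes in the median member, and 30 of 73 and 14 of 36 members stood above the highest of them. In the YFP- libraries all 11 and all 3 members did.

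**Figure D1:**
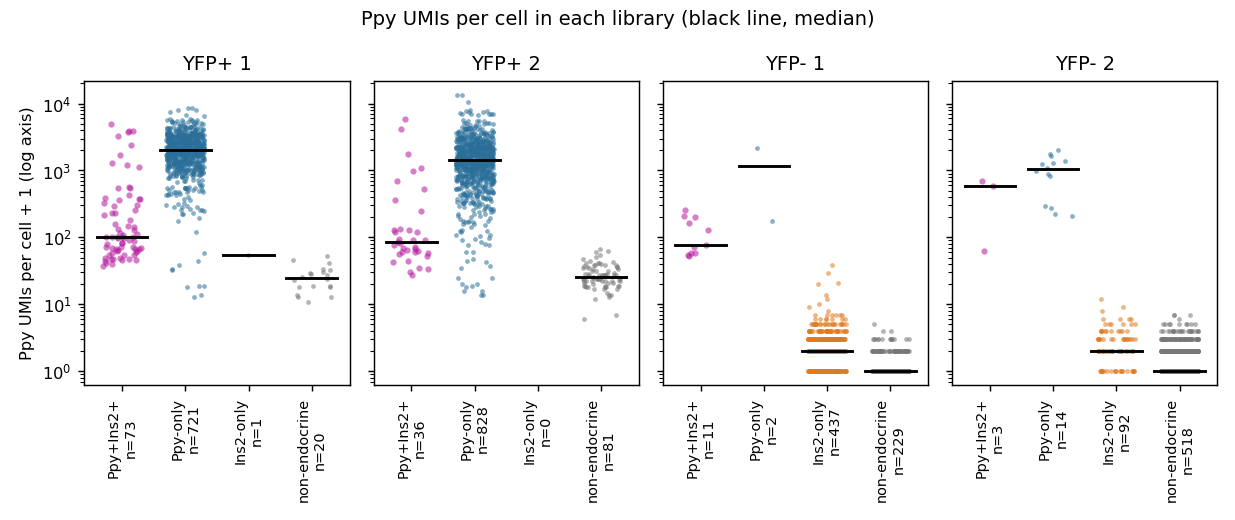
Ppy UMIs per cell plus 1 on a log axis, 1 panel for each library (YFP+ and YFP- of experiments 1 and 2), with a point for each cell of the classes Ppy+Ins2+, Ppy-only, Ins2-only and non-endocrine and a black line at each median. In the YFP+ libraries the members' medians of 102 and 83.5 lie above the non-endocrine medians of 24 and 25 and far under the Ppy-only medians of 2042 and 1418, while in the YFP- libraries the non-endocrine cells do not pass 6.

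Against the highest non-endocrine cell of their own library by UMIs per cell, 11 members of the YFP+ library of experiment 1 were no higher in Ppy, 55 lay between it and the lower quartile of Ppy-only cells, and 7 reached that quartile (1316 UMIs). In experiment 2 the counts were 14, 17 and 5 (quartile 816.5 UMIs). These ranges were set after seeing the data and use Ppy itself, so the levels that follow describe the cells and carry no test. rtTA, which is made from the same locus as Ppy, had 0 UMIs in the members of the lowest range in both experiments and 0 in all non-endocrine cells. Its level in the middle range was 25.6 CPM in experiment 1 (UMIs of the gene per 1000000 UMIs of the cells, with no scaling) and 15.0 in experiment 2, and in the highest range it was 232 and 105. rtTA was seen in 7 of the 55 middle cells and 4 of the 7 highest cells of experiment 1, and in 2 of 17 and 4 of 5 in experiment 2. rtTA was thus densest in the members with most Ppy. Pyy, the hormone gene next to Ppy, rose through the ranges from 7319 to 18283 to 135721 CPM in experiment 1, and was 6547, 30824 and 108860 in experiment 2. Iapp went the other way at the top, with 63281, 60935 and 37831 in experiment 1 and 54482, 62981 and 32339 in experiment 2. The highest range also held the largest cells by UMIs, with a median total of 20638 and 17744 against 8006 and 6319.5 in the lowest.

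Across members of a library, Ppy and Pyy per 10000 UMIs went together (Spearman's rho 0.82 over 73 cells and 0.84 over 36). These correlations are across cells of 1 library that were chosen in part by Ppy, and both levels share the total of each cell. YFP had no order common to both experiments: it stood at 66.4, 78.2 and 116 CPM over the 3 ranges of experiment 1 and at 132, 120 and 47.6 in experiment 2, while non-endocrine cells of these libraries held 248 and 130.

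The members were deep cells. In the YFP+ libraries their median total was 10756 UMIs (experiment 1) and 7674 (experiment 2), which is 1.42 and 1.30 times that of Ppy-only cells of the same libraries (7575 and 5887). Ins2-only cells of the YFP- libraries had 23832 and 12529. A nearest-neighbour doublet caller marked 14 of the 73 members (19.2%) and 1 of the 36, but 0 of 721 and 1 of 828 Ppy-only cells. In the YFP- library of experiment 1 it marked 29 of 437 Ins2-only cells (6.64%). Doublets were kept, and the counts of called genes and of the main lists are also given without the marked cells. The part of doublets in the values of the members was not tested.

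Ins2 was high in every member by the rule, while Ins1, and with it the ratio of both insulin genes, was not part of the rule. Ins2 had a median of 4085 and 2672 per 10000 UMIs in the YFP+ members and 3896 in the 11 YFP- members of experiment 1, against 4974 and 4421 in Ins2-only cells and 12.7 and 4.75 in Ppy-only cells. The cutoff had few cells near it, since the lowest members stood at 578 and 592 and the highest cells under it at 532, 438 and 405. For Ppy the lowest members stood at 26.7 and 27.0 and the highest cells under the cutoff at 19.3 and 19.1 per 10000 UMIs.

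Mouse insulin comes from 2 genes on different chromosomes, Ins1 (chr19:52264297-52265015) and Ins2 (chr7:142678656-142679726). Ppy (chr11:102099931-102101319) and Pyy (chr11:102106676-102107832) lie next to each other, 5356 bases apart, on the minus strand. The 250 bases before the start of Ins1 and of Iapp, both of which stood far above their Ppy-only level in members, and of Ppy and Pyy, which went together from cell to cell, are shown with each TAAT (read on either strand, so that ATTA counts as well) in capitals. TAAT is the core of the sequence that homeodomain factors such as Pdx1 and Nkx6-1 recognise. The sequences are from RefSeq for GRCm38.p6, each written 5′ to 3′ on the strand of its gene, and matches may overlap, as ATTA and TAAT do in the ATTAAT of Iapp.
Ins1, chr19:52264047-52264296, plus strand: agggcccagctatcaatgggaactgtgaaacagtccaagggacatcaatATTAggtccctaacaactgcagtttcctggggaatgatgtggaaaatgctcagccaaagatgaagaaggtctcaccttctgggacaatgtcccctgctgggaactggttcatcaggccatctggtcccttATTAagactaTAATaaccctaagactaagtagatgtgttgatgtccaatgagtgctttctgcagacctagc
Iapp, chr6:142298175-142298424, plus strand: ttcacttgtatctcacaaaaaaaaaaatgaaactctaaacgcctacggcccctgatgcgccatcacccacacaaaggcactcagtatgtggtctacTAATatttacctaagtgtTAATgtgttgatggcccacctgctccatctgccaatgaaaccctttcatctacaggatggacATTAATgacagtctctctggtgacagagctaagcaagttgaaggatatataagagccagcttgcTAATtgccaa
Ppy, chr11:102101320-102101569, minus strand: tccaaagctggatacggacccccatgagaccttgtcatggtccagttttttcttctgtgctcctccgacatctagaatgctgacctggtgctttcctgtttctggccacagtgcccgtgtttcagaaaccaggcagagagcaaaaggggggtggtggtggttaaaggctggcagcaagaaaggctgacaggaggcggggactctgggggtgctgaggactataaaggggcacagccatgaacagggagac
Pyy, chr11:102107833-102108082, minus strand: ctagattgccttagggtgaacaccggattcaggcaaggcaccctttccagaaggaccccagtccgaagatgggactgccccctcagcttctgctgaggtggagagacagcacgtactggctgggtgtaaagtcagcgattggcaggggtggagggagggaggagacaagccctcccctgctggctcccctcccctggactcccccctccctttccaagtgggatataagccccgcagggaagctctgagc
Ins1 held 3 matches, Iapp 5, Ppy 0 and Pyy 0. The window of G6pc2, which also stood far above its Ppy-only level in members, is not shown and held 1. Of 32851 RefSeq windows of this length 54.9% hold at least 1, so a match alone sets no gene apart, and it marks letters, not a bound site.

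Ins1 supplied a smaller share of the insulin UMIs in members than in Ins2-only cells. Its share, Ins1 over Ins1 plus Ins2, had a median of 8.50% (range 1.45 to 31.9) in the 73 YFP+ members of experiment 1 and 17.9% (1.41 to 38.7) in the 36 of experiment 2. In Ins2-only cells of the YFP- libraries it was 28.7% (3.02 to 45.5) and 31.7% (9.78 to 39.8). The ranges overlapped, but the medians of both experiments were lower in members. The 11 YFP- members of experiment 1, which were sorted with those Ins2-only cells, had 5.96% (3.33 to 9.93), and the 3 of experiment 2 had 15.1%, 31.1% and 31.9%. The single Ins2-only cell of a YFP+ library had 31.1%.

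A share under 10% was found in 42 of 73 members (57.5%, interval 45.4 to 69.0), 7 of 36 (19.4%, 8.19 to 36.0), 11 of 11 and 0 of 3, together 60 of 123. Among Ins2-only cells it was found in 14 of 437 (3.20%) and 1 of 92 (1.09%). Cells low in Ins1 were the majority of members in experiment 1, in both sorted fractions, and the minority in experiment 2. Without the cells marked as doublets the medians were 8.31% over 59 cells and 17.6% over 35. Over the members with more Ppy UMIs per cell than any non-endocrine cell they were 8.34% over 62 cells and 14.4% over 22. That second subset does not allow for the larger totals of members. The 14 marked members of experiment 1 had a median of 13.5%. These shares, the limit of 10% and both subsets were chosen after seeing the data and carry no test. In 2 experiments the difference between classes has 2 values, and the sorted fraction of YFP+ members and Ins2-only cells cannot be told apart from their class.

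**Figure D2:**
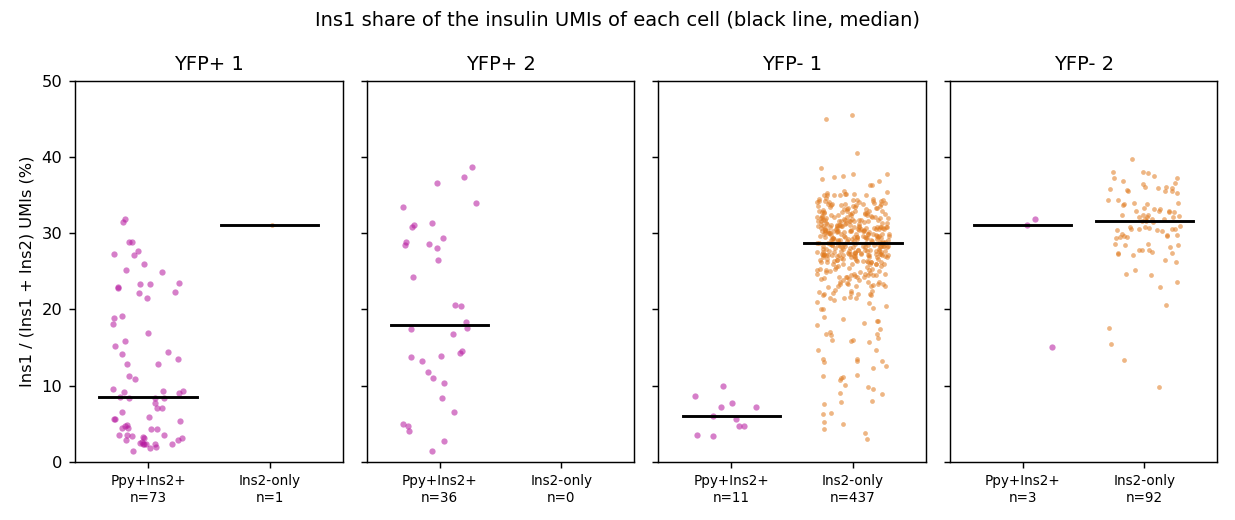
Share of Ins1 in all insulin UMIs (Ins1 plus Ins2, percent) per cell, 1 panel for each library, for Ppy+Ins2+ and Ins2-only cells, with a black line at each median. Members sit at medians of 8.50% and 17.9% in the YFP+ libraries and all 11 members of the YFP- library of experiment 1 are under 10%, while Ins2-only cells of the YFP- libraries centre on 28.7% and 31.7%.

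The β-cell genes G6pc2, Mafa, Ucn3 and Slc30a8 were each highest in the members with most Ins1 in both experiments. Below a share of 20% their order differed by gene and experiment, and the levels in small groups of cells rest on few UMIs. In the YFP+ library of experiment 1, G6pc2, an islet glucose-6-phosphatase subunit, stood at 53.4 CPM in the 42 members under 10%, at 145 in the 13 between 10 and 20% and at 398 in the 18 above. In experiment 2 it stood at 51.3, 50.3 and 396 over 7, 12 and 17 cells. Thus G6pc2 was highest in the members with most Ins1 in both experiments. Mafa, a factor of insulin transcription that comes on late in β-cells, stood at 6.41, 0 and 52.6 in experiment 1 and at 25.7, 0 and 116 in experiment 2. Ucn3 (urocortin 3, a peptide of mature β-cells) stood at 21.4, 69.2 and 113 in experiment 1 and at 25.7, 0 and 58.2 in experiment 2. Slc30a8, the zinc transporter, had 85.5, 151 and 308 in experiment 1 and 77.0, 117 and 151 in experiment 2. Slc2a2 was highest in the members with most Ins1 in experiment 2 only, with 23.5, 132 and 113 in experiment 1 and 25.7, 16.8 and 81.5 in experiment 2. Iapp went against them, from 64833 to 48470 CPM in experiment 1 and from 79584 to 44935 in experiment 2. Nkx6-1 was likewise not lowest in the members with least Ins1 in experiment 1, with 156, 113 and 97.7, nor in experiment 2, with 154, 117 and 146. Pdx1 had no common order, with 51.3, 37.7 and 30.1 in experiment 1 and 0, 50.3 and 23.3 in experiment 2.

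In Ins2-only cells of the YFP- library of experiment 1, too, G6pc2 and Mafa were highest and Iapp lowest in the cells with most Ins1. G6pc2 stood at 212, 230 and 521, Mafa at 11.8, 28.0 and 187 and Iapp at 65325, 59989 and 50131 over 14, 31 and 392 cells. Here too Iapp was read as a share of all UMIs, while Ins1 rose from 36508 to 210639 CPM, so no direction outside that share is given for Iapp. The 14 Ins2-only cells with least Ins1 also held more Pyy (7827 CPM, against 1621 and 189) and more Ppy (494, against 213 and 63.2), although each lay under the Ppy cutoff. The low Ins1 share was therefore not limited to cells over the Ppy cutoff. The 11 YFP- members of that library had 127 for G6pc2, 7.92 for Mafa, 7.92 for Ucn3 and 74513 for Iapp.

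To test single genes, UMIs were summed over the cells of each class in each experiment, YFP+ cells for members and Ppy-only cells and YFP- cells for Ins2-only cells, and edgeR's quasi-likelihood test was run on 14 sums of 7 classes with the experiment as a block. Values below are CPM after scaling (CPM of the sum divided by edgeR's TMM factor), the first for experiment 1 and the second for experiment 2. A gene was called at a Benjamini-Hochberg adjusted p of at most 0.05 and a log2 fold change beyond 0.721 in either direction. Of 10653 genes tested, 527 (4.95%) were called against Ppy-only cells, 352 higher (3.3%) and 175 lower (1.64%) in members. This balance moved with settings on depth: without members of high totals 266 were higher and 263 lower, and with cells thinned to 1000 UMIs 39 were higher and 74 lower. Against Ins2-only cells 270 (2.53%) were called, 128 higher (1.2%) and 142 lower (1.33%), with 48 and 118 without members of high totals and 12 and 23 thinned. For scale, 2515 (23.6%) were called between Ppy-only and Ins2-only cells. Without the marked doublets the counts were 453 and 265, and over the members above the highest non-endocrine cell in Ppy 410 and 247. Of these, 392 and 219 were among those called over all members.

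The comparison with Ppy-only cells asks what differs within the same YFP+ libraries once Ins2 is high. Genes that are on together with insulin, and genes that fall where Ppy is lower, differ here in part because of the rule, so the direction of the β and γ lists is a description. All 11 measured β-cell genes other than Ins2 were called higher in members (median log2 difference 4.64, against −0.0647 over all genes). They were also called without the marked doublets and over the members above the highest non-endocrine cell in Ppy UMIs per cell. With cells thinned to 1000 UMIs 6 of 10 tested were. Ins1 read 83877 and 85779 CPM after scaling in members and 282 and 255 in Ppy-only cells (log2 8.31, SE 0.46, edgeR adjusted p = 1.687e-11). G6pc2 read 213 and 235 against 1.31 and 0.79 (log2 7.64, SE 0.25, adjusted p = 1.78e-15). G6pc2 had a UMI in 47.9% and 55.6% of members (15.1% and 22.2% with each cell thinned to 1000 UMIs) and in 0 of the 20 and 81 non-endocrine cells. Mafa read 23.5 and 64.8 in members and had 0 UMIs in both Ppy-only sums, at least 41.9-fold higher with the floor set at 3 UMIs per sum. Slc2a2 read 85.7 and 52.5 against 0.56 and 0.99, and Ucn3 70.5 and 33.9 against 2.06 and 0.59. Iapp, at 71082 and 51798 in members, read 2981 and 2748 in Ppy-only cells (log2 4.40).

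Of the other β-cell genes, Ero1lb, an oxidoreductase that helps fold proinsulin, read 209 and 278 against 13.8 and 15.6 CPM after scaling (log2 4.01). Slc30a8 read 202 and 133 against 19.1 and 19.4 (log2 3.12). Sytl4 (granuphilin), which docks insulin granules, read 22.1 and 30.9 against 0.94 and 0.99 (log2 4.64). Among 8 genes of glucose sensing 5 were called higher, G6pc2, Slc2a2, the ion channel gene Trpm5, the calcium channel gene Cacna1d and Pcx (pyruvate carboxylase), and 0 lower. Cacna1d, with 30.4 and 30.9 against 15.9 and 16.0 (log2 0.95, edgeR adjusted p = 0.0395), lost its call under 12 of 18 alternatives, among them DESeq2, no block and each of the 4 sums left out (adjusted p = 0.089 to 0.534). Pcx lost it without the members of experiment 1 (adjusted p = 0.159) and without Ppy-only cells of experiment 1 (adjusted p = 0.0528). The largest differences upward, by the rule on size, also took in Tmem215, Cox6a2, Pdyn, Gad1 and Fam151a. Without members of high totals Cox6a2 (log2 3.39, edgeR adjusted p = 0.378) and Gad1 (log2 4.35, adjusted p = 0.135) were not called. With cells thinned to 1000 UMIs Tmem215 (log2 4.26, adjusted p = 0.362), Cox6a2 (log2 4.17, adjusted p = 0.365) and Pdyn (log2 3.68, adjusted p = 0.363) were not called. Pdyn, which encodes the opioid precursor prodynorphin, read 78.8 in experiment 1 and 9.26 in experiment 2 in members against 0.37 and 0.20 (log2 7.09, SE 0.72), so that its level in members was set mostly by experiment 1, without which it was not called (adjusted p = 0.207).

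**Figure D3:**
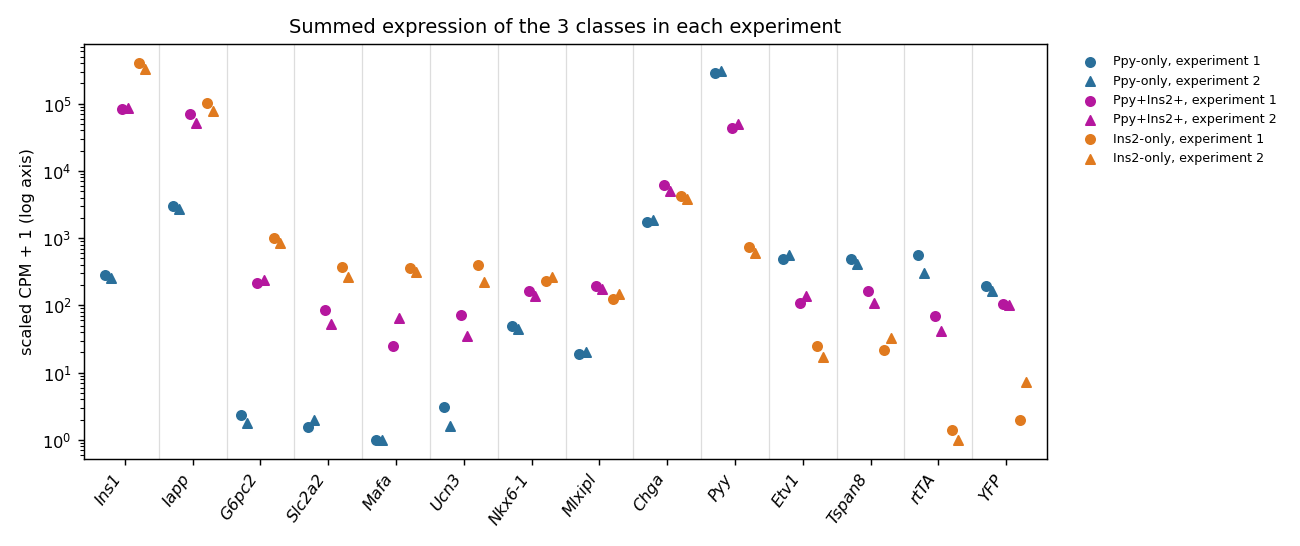
Level of 14 genes of β-cell, γ-cell and reporter identity in the Ppy+Ins2+, Ppy-only and Ins2-only sums, as CPM after scaling plus 1 on a log axis, with circles for experiment 1 and triangles for experiment 2. Ins1, G6pc2, Slc2a2, Mafa and Ucn3 rise from Ppy-only through members to Ins2-only cells, as for G6pc2 with 1.31 and 0.79, 213 and 235, and 1009 and 853, and Pyy, Etv1 and rtTA fall in the same order.

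Of 19 measured islet factors 6 were called higher in members than in Ppy-only cells, Mafa, Pdx1, Nkx6-1, Insm1, Neurod1 and Mlxipl, Etv1 was called lower and 12 were not called, with the same counts without the marked doublets. Insm1 and Neurod1 are factors of all islet endocrine cells. Pdx1, which drives insulin transcription, read 52.5 and 30.9 in members and 9.54 and 6.53 in Ppy-only cells (log2 2.38). Nkx6-1, which maintains the β-cell state, read 162 and 139 against 47.9 and 43.9 (log2 1.75). Mlxipl, the glucose-responsive factor ChREBP, read 195 and 176 against 18.0 and 19.4 (log2 3.33). These 3 factors were well above the spread between experiments, and without the members of experiment 1 Pdx1 (adjusted p = 0.0617) and Nkx6-1 (adjusted p = 0.0766) were not called. Etv1, an ETS-family factor that the study lists for γ-cells, read 109 and 139 against 497 and 556 (log2 −2.13, SE 0.18).

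Of 7 measured γ-cell genes other than Ppy, several of which the study chose on these same libraries, 5 were called lower in members and 0 higher (median −1.70), and Fev and Foxp2 were not called. Pyy read 43581 and 49875 in members and 288730 and 308180 in Ppy-only cells (log2 −2.68, SE 0.19). Tspan8, a tetraspanin, read 163 and 108 against 481 and 418 (log2 −1.70), and Gc, the vitamin D-binding protein, 77.4 and 64.8 against 249 and 280 (log2 −1.88). Folr1, the folate receptor, read 210 and 15.4 in members and 492 and 64.7 in Ppy-only cells (log2 −1.41), with experiment 1 above experiment 2 in both classes, and was not called without the members of experiment 1 (log2 −1.97, adjusted p = 0.211). rtTA read 67.7 and 40.1 in members against 568 and 304 (log2 −3.05, SE 0.18), and had a UMI in 15.1% and 16.7% of members against 63.5% and 43.7% of Ppy-only cells (4.11% and 0% against 31.6% and 18.2% with each cell thinned to 1000 UMIs). YFP, with 102 and 102 against 195 and 163, was also called lower (log2 −0.84, adjusted p = 0.0191). YFP lost this call under 6 of 18 alternatives, by DESeq2, without the block, by library totals, without the members of experiment 1 (adjusted p = 0.404) and without Ppy-only cells of experiment 1 (adjusted p = 0.119) or of experiment 2 (adjusted p = 0.0976). With each cell thinned to 1000 UMIs, YFP had a UMI in 4.11% and 8.33% of members and in 15% and 13.6% of the non-endocrine cells (60.3% and 47.2% against 65% and 27.2% unthinned, at median totals of 3449.5 and 2302 UMIs in the latter). Ppy-only cells, at 16.1% and 12.1% thinned, were close to the non-endocrine cells as well, and both were sorted as YFP+, so these cells give no background for YFP.

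Of 6 genes of the insulin granule 4 were called higher in members than in Ppy-only cells, Ero1lb, Iapp, Slc30a8 and Sytl4, and 0 lower (median log2 difference 3.57). Of 10 granin and prohormone genes, Chga (chromogranin A) and Pcsk1 (the prohormone convertase that opens proinsulin) were called higher in members than in Ppy-only cells and 0 were called lower. Chga read 6210 and 5015 CPM after scaling against 1728 and 1834 (log2 1.65). Pcsk1 read 71.8 and 105 against 16.1 and 13.7 (log2 2.51), while Pcsk2, the convertase that β- and α-cells share, read 4410 and 3614 against 4422 and 3689 and was not called. Of 5 measured receptors, Ffar1, a free fatty acid receptor of β-cells, was called higher with 77.4 and 77.2 against 18.5 and 14.1 (log2 2.25), as was the adrenergic receptor Adra2a with 16.6 and 18.5 against 0 and 0.59. Of 9 genes of the endoplasmic reticulum and stress response, Hspa5 (BiP) and Sdf2l1 were called higher, Hspa5 with 278 and 410 against 185 and 205 (log2 0.78). Both lost their call under several alternatives, as without the members of experiment 2, where Hspa5 had a log2 difference of 0.44 (adjusted p = 0.399) and Sdf2l1 one of 0.59 (adjusted p = 0.197). Of 7 genes of immature or stressed β-cells only Gast (gastrin) was called, at 11.1 and 3.09 against 1.12 and 0.20, a level of few UMIs, and it was not called without the marked doublets nor without the members of experiment 1 (adjusted p = 0.684). Of 6 immediate early genes, which dissociation can raise, Jun, Junb and Ier2 were called lower in members, Jun with 44.2 and 37.0 against 129 and 106 (log2 −1.47). None of the 3 was called without Ppy-only cells of experiment 1 (adjusted p = 0.0652 for Jun, 0.12 for Junb and 0.0572 for Ier2).

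The comparison with Ins2-only cells asks how members differ from cells with insulin alone. It sets YFP+ cells against YFP- cells, and the fraction cannot be told apart from the class. Of the 11 β-cell genes 9 were called lower in members and 0 higher (median −2.07, against −0.0512 over all genes), 8 of them lower without the marked doublets. G6pc2 read 213 and 235 in members and 1009 and 853 in Ins2-only cells (log2 −2.08, SE 0.16, adjusted p = 1.267e-08). Ins1 read 83877 and 85779 against 405250 and 331930 (log2 −2.10, SE 0.34), and without the members of experiment 1 it was not called (log2 −1.94, adjusted p = 0.0617). Mafa, the furthest apart, read 23.5 and 64.8 against 357 and 309 (log2 −3.16, SE 0.28), and Slc2a2 85.7 and 52.5 against 366 and 263 (log2 −2.15). Ucn3 read 70.5 and 33.9 against 402 and 221 (log2 −2.58), and Trpm5 24.9 and 12.3 against 98.3 and 94.3 (log2 −2.22). The mature β-cell genes of members thus lay between Ppy-only and Ins2-only cells in both experiments.

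Iapp and Nkx6-1 were the β-cell genes not called against Ins2-only cells. Iapp read 71082 and 51798 in members and 101130 and 76920 in Ins2-only cells (log2 −0.54), and Nkx6-1 read 162 and 139 against 227 and 259 (log2 −0.65). Without scaling, by library totals alone, an alternative chosen after seeing the data, both were at or above 0 (log2 0.12 and 0.01), so no direction is given for them. Pdx1 was called lower by a narrow margin (52.5 and 30.9 against 93.6 and 63.3, log2 −0.88, edgeR adjusted p = 0.0499), and was not called in 14 of 18 alternatives, each of the 4 sums left out among them (adjusted p = 0.0542 to 0.534). The scaling bears on all genes of this comparison, since insulin fills the Ins2-only sums: by library totals the median over all genes moved to 0.637, and 1828 genes were called, 1768 higher and 60 lower in members, of which the β-cell list had 8 lower. G6pc2, Ins1, Mafa, Slc2a2, Ucn3 and Trpm5 stayed lower under that scaling, and Chga (0.48 by the scaled fit, adjusted p = 0.158) was called higher by it (log2 1.14, adjusted p = 9.312e-05).

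In the other direction 6 of the 7 γ-cell genes were called higher in members than in Ins2-only cells and 0 lower (median 2.44). The rule and the sort set Ppy higher in members, and the study chose several of these genes on these same libraries. The direction of this list and of rtTA is therefore a description. Without the members of experiment 1 Fev (adjusted p = 0.174), Folr1 (adjusted p = 0.564) and Gc (adjusted p = 0.275) were not called, and Fev was not called with any 1 of the 4 sums left out (adjusted p = 0.0516 to 0.304). Without members of high totals Gc fell to a log2 difference of 0.51 (adjusted p = 0.762), and with thinned cells Gc (adjusted p = 0.348), Tspan8 (adjusted p = 0.279) and Folr1 (adjusted p = 0.0677) were not called, while Pyy and Etv1 were called under both. Pyy read 43581 and 49875 in members and 727 and 610 in Ins2-only cells (log2 6.12, SE 0.22). Etv1 read 109 and 139 against 24.3 and 16.1 (log2 2.44, SE 0.23). rtTA read 67.7 and 40.1 against 0.39 and 0 (log2 7.42). γ-cell RNA was also read in the non-endocrine cells of the YFP+ libraries, and its part in these differences was not tested. Pyy stood there at 4291 and 8083 CPM, unscaled, against 35317 and 48980 in the summed members, of which the few cells of the highest Ppy range carried most. The typical member was closer to background, with a median of 69.3 and 120 Pyy UMIs per 10000 against 43.0 and 80.5 in non-endocrine cells, and the lowest Ppy range of experiment 2, at 6547 CPM, was not above it. Tspan8 stood at 13.8 (Poisson interval 0.348 to 76.6) and 9.62 (1.16 to 34.7) against 132 and 106 in members, also above it. Etv1 stood at 41.3 (8.51 to 120.6) and 9.62 (1.16 to 34.7) against 88.4 (70.0 to 110.2) and 136 (99.5 to 182) in members, so that it was above background in experiment 2 and not told apart from it in experiment 1. rtTA had 0 UMIs in the non-endocrine cells, which allows up to 50.7 CPM in experiment 1 and 17.7 in experiment 2 by the Poisson interval, against 54.9 (40.6 to 72.5) and 39.4 (21.0 to 67.4) in members. At this depth rtTA was thus above background in experiment 2 and could not be told apart from it in experiment 1.
The rule on size also named Serpine2, Rcn3, Pak7, Kcnk3 and Sv2b as higher, Rcn3 with 31.8 and 27.8 against 1.93 and 3.72. Without the members of experiment 1 Serpine2 (adjusted p = 0.101), Pak7 (adjusted p = 0.453) and Sv2b (adjusted p = 0.534) were not called. Without members of high totals Rcn3 (log2 2.17, adjusted p = 0.214), Kcnk3 (log2 2.24, adjusted p = 0.112), Pak7 (adjusted p = 0.11) and Sv2b (adjusted p = 0.244) were not called, and Rcn3 and Kcnk3 were not called with thinned cells either (adjusted p = 0.885 and 0.256). The genes furthest below Ins2-only cells, S100a8, S100a9, Zg16, Npy and genes of antibodies and MHC class II (Ighm, Ighg3, Ighg2b, H2-Ab1, H2-Aa, H2-Eb1), had 0 UMIs in members. All of these but Npy and Zg16 are genes of blood and immune cells, and S100a8 in Ins2-only cells was 0.97 in experiment 1 and 198 in experiment 2. Without the block only Ighm and Ighg3 among these genes were still called. Ighg2b lost its call under 8 of 17 alternatives, Zg16 under 6 of 18 and S100a9 under 5 of 18, while Ighm and Ighg3 each lost it under 1 of 17.

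Hk1 (hexokinase), 1 of 3 measured genes that β-cells keep low, had 4 and 1 UMIs in the members' sums (5.53 and 3.09 CPM after scaling, where the floor of 3 UMIs stood at 4.14 and 9.26), 5.98 and 6.33 CPM in Ppy-only cells and 0 UMIs in both Ins2-only sums. It was called higher than in Ins2-only cells (adjusted p = 0.0189) on these few UMIs. The call was lost without the members of experiment 1 (adjusted p = 0.445), without Ins2-only cells of experiment 1 (adjusted p = 0.417) and without members of high totals, where the log2 difference was 0.05. Npy (neuropeptide Y) had 0 UMIs in members and Ppy-only cells and read 36.1 and 55.8 in Ins2-only cells, at least 6.03-fold lower in members. The call of Npy was lost under 3 of 17 alternatives, DESeq2 and no block among them. Cd81, a surface protein linked to immature β-cells, read 200 and 164 in members against 116 and 84.3 in Ins2-only cells and 310 and 284 in Ppy-only cells. Of the immediate early genes Fos, Fosb, Egr1 and Ier2 were called higher than in Ins2-only cells, Fos with 203 and 170 against 98.7 and 103 (log2 0.92). Without the members of experiment 1 none of these 4 was called (adjusted p = 0.22 for Fos, 0.452 for Fosb, 0.127 for Egr1 and 0.715 for Ier2), and Cd81 was not either (adjusted p = 0.278). None of the 5 was called without members of high totals (adjusted p = 0.194 for Fos, 0.0783 for Fosb, 0.0503 for Egr1, 0.579 for Ier2 and 0.196 for Cd81).

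Over the genes that told Ppy-only and Ins2-only cells apart, the median position of members was between both. These were the genes called between the 2 classes with a log2 difference of at least 2 and at least 50 CPM in the higher class, without the genes of the rule, and members did not enter their choice. On unscaled CPM, where 0% is the Ppy-only level and 100% the Ins2-only level, it was 71.0% and 73.6% for the 35 genes higher in Ppy-only cells and 60.9% and 60.0% for the 47 genes higher in Ins2-only cells. On CPM after scaling, the scale of the single-gene test and an alternative added after seeing the data, it was 74.6% and 77.6% for the first set and only 32.7% and 33.7% for the second, so the distance from Ins2-only cells depends on the scaling. Members thus stood nearer to Ins2-only cells for the first set of genes than for the second in both experiments (72.3% ± 1.83 and 60.5% ± 0.643, SD, n = 2). The order was the same on scaled CPM (76.1% ± 2.18 and 33.2% ± 0.736). Single genes spread widely, and how many passed the Ins2-only level also turned on the scaling. On unscaled CPM 13 of the 47 Ins2-only genes lay beyond it in each experiment (upper quartile 106.9% and 102.1%), and on scaled CPM 2 and 5 did (upper quartile 62.4% and 64.4%). Mlxipl lay beyond it on both scales, at 303% and 204% unscaled and 166% and 122% scaled. Against Ins2-only cells it was not called by edgeR's test (log2 0.49, adjusted p = 0.12), and it was called higher by library totals (log2 1.15, adjusted p = 0.000203). Insm1, at 140% and 132% unscaled, stood at 73.2% and 73.3% scaled, and Iapp, at 114% and 105% unscaled, at 69.4% and 66.1%, so neither has a direction that holds on both. G6pc2 stood at 33.9% and 42.5% unscaled and at 21.0% and 27.4% scaled. The mean positions moved with the cells taken but kept this order under each of the 7 other choices of cells tried, such as 80.2% and 72.2% without members of high totals and 53.1% ± 7.53 and 43.3% ± 12.9 (SD, n = 2) with a higher Ppy cutoff, where they lay within the spread of the experiments. With genes of a log2 difference of at least 1 they were 57.0% and 97.8%, which turns the order.

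Some genes lay outside both single-hormone classes instead of between them. Called in the same direction against Ppy-only and against Ins2-only cells were 12 of 10653 genes, 9 higher and 3 lower in members. Over all genes tested, 3.3% and 1.2% were called higher in the 2 comparisons, and 1.64% and 1.33% lower. With such shares some genes would be called in both without any relation, so the counts of 9 and 3 are not read as a result. Both comparisons share the members' sums, and the genes were picked after their values were seen, so no test is given for the list. Without the marked doublets 10 of the 12 were called again, all but Tob1 and Mum1l1. Over the members above the highest non-endocrine cell in Ppy UMIs per cell 10 of them were called again, all but Sez6l and Tob1, among 8 higher and 5 lower genes. By library totals the 9 higher ones were called again among 82, and none of the 3 lower ones was. Cpne4, a copine, read 16.6 and 18.5 CPM after scaling in members, 0 and 0.99 in Ppy-only and 1.16 and 6.20 in Ins2-only cells (log2 5.27 and 2.88). Opcml, a cell adhesion molecule, read 20.7 and 24.7 against 2.43 and 1.58 and against 3.67 and 4.96 (log2 3.44 and 2.46). Prss23, a serine protease, read 62.2 and 24.7 against 5.80 and 2.97 and against 10.6 and 9.92. These 3 were low in both other classes, and members lay above both in each experiment.
Sez6l, a membrane protein that BACE2 cleaves in β-cells, read 126 and 133 in members, 8.79 and 5.34 in Ppy-only cells and 70.9 and 42.2 in Ins2-only cells. Fxyd6, a regulator of the sodium pump, read 233 and 179 against 50.5 and 66.3 and against 119 and 103. Lrch2, Hist2h2aa1, Tob1 and Mum1l1 were the other 4 higher ones, Tob1 with 51.1 and 67.9 against 32.9 and 31.9 and against 31.3 and 27.3. Lower in members than in both classes were B2m, the light chain of MHC class I, with 38.7 and 33.9 against 95.7 and 126 and against 100 and 102 (log2 −1.51 and −1.44), Csnk2a1, the catalytic subunit of casein kinase 2, with 29.0 and 40.1 against 64.9 and 61.3 and against 61.6 and 75.7, and Ppp2r3a. B2m is on in nearly all cells, and in members it stood at less than either class in both experiments.

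**Figure D4:**
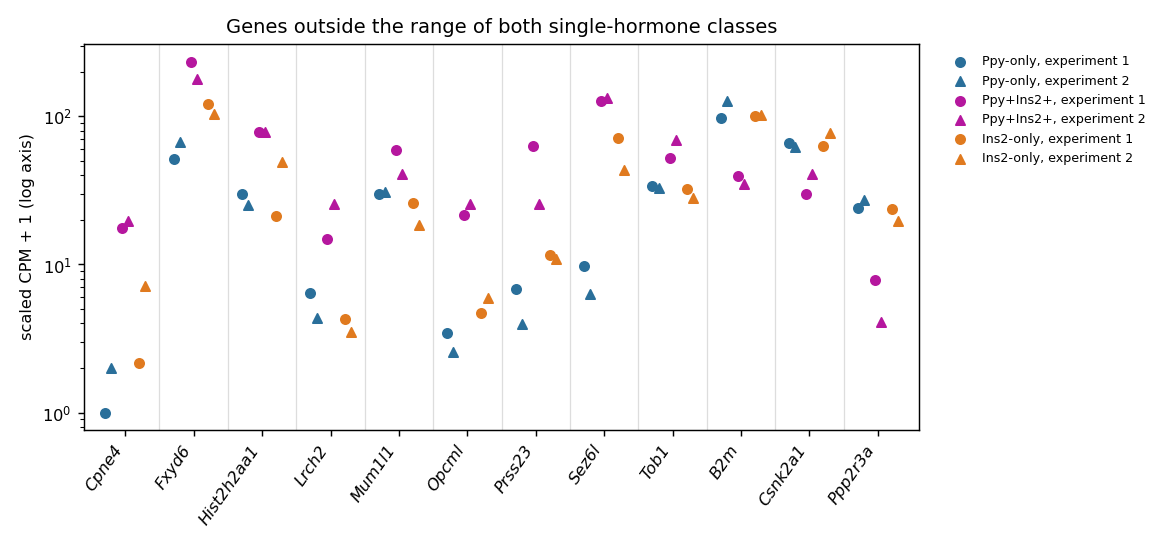
The 12 genes called in the same direction against Ppy-only and Ins2-only cells, 9 higher and 3 lower in members (the 3 not by library totals), as CPM after scaling plus 1 on a log axis, with circles for experiment 1 and triangles for experiment 2. For Cpne4 and Opcml members stand at 16.6 to 24.7 while both other classes stay at or under 6.20, and for B2m members stand at 38.7 and 33.9 with both other classes from 95.7 to 126.

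Members were also set beside cells of the YFP+ libraries that passed the cutoffs of Ppy and of Gcg or Sst in place of Ins2. The rule itself sets Ins2 higher and Gcg or Sst lower in members here. The direction of the β, α and δ lists is therefore a description. Against Ppy+Gcg+ cells 620 genes (5.82%) were called, 341 higher (3.2%) and 279 lower (2.62%) in members, and 563 without the marked doublets (232 higher and 533 lower by library totals). Of the β-cell list 10 of 11 were higher and Slc30a8 was not called, and 5 of 7 α-cell genes were lower, such as Ttr (transthyretin) with 1411 and 1281 in members against 11554 and 8028 (log2 −2.85). Against Ppy+Sst+ cells 258 (2.42%) were called, 152 higher (1.43%) and 106 lower (0.995%), and 231 without the marked doublets (81 higher and 1056 lower by library totals, which moved the median of all genes to −0.557). Of the β-cell list 10 were higher and Pdx1, which δ-cells also use, was not called, and 3 of 5 δ-cell genes were lower, among them Hhex, at 0 UMIs in members and 87.9 and 67.3 in Ppy+Sst+ cells.
Of the γ-cell list 4 of 7 genes were lower in members than in Ppy+Gcg+ cells and 3 of 7 than in Ppy+Sst+ cells (3 and 2 without the marked doublets), and 0 were higher in either comparison. Pyy, at 43581 and 49875 in members, read 129200 and 176600 in Ppy+Gcg+ cells and 101940 and 146520 in Ppy+Sst+ cells (log2 −1.71 and −1.41). Etv1, at 109 and 139 in members, read 518 and 540 and then 452 and 415 (log2 −2.14 and −1.85), close to its Ppy-only level of 497 and 556. rtTA, at 67.7 and 40.1 in members, read 222 and 106 and then 275 and 125 (log2 −1.62 and −1.89). Each was called lower in members in both comparisons by edgeR's test. Iapp was lower in Ppy+Gcg+ cells (2058 and 1588) than in Ppy+Sst+ cells (15347 and 11847), and members with 71082 and 51798 were above both (log2 5.07 and 2.17).

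Markers of endothelial, acinar, ductal and immune cells were at a low level in the members of the YFP+ libraries. All 4 measured endothelial genes besides the rule's Plvap had 0 UMIs. The summed acinar genes stood at 20.2 and 27.3 CPM (unscaled), against 62.2 and 33.7 in Ppy-only and 277 and 24.4 in Ins2-only cells. The ductal genes summed to 99.6 and 87.9, most of it Krt7, with Krt19, Sox9 and Muc1 at 0, and Spp1 was called lower than in Ppy-only cells (15.2 and 12.3 against 145 and 191 CPM after scaling). The immune genes summed to 10.1 and 36.4, most of it Cd79a, with Ptprc and Laptm5 at 0, and to 3.1 and 7.5 in Ppy-only and 29.9 and 124 in Ins2-only cells. The δ-cell genes summed to 167 and 224, nearly all of it Rbp4 (167 and 218), against 378 and 376 in Ppy-only and 33.0 and 130.5 in Ins2-only cells, and Hhex, Ptprz1 and Spock3 were at 0 in members. The α-cell genes other than Gcg summed to 1251 and 1367, most of it Ttr (1143 and 1258). That was below Ppy-only cells (5092 and 4606) and above Ins2-only cells (1045 and 841).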

How the data were processed

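Single-cell suspensions of 4 libraries were measured by droplet 3′ sequencing (10x). The authors deposited UMI counts per gene and cell (31055 genes), made with Cell Ranger on mm10 with Ensembl gene models extended by the sequences of YFP and rtTA. The submitters' processing notes also name Seurat and R 3.6.1. Bulk libraries of the series (8 of its 12 samples) hold no single cells and were not used here. Groups were taken from the labels. The 4 libraries held 1300, 1498, 1495 and 1689 cells (YFP+ 1 and 2, YFP- 1 and 2) with medians of 7601.5, 5824.5, 8338 and 4237 UMIs.

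The members, the gene lists and the tests were chosen with earlier results of these data known. Hormone classes were set on UMIs per 10000 of a cell. UMIs were summed per class and experiment (at least 10 cells) over YFP+ cells for Ppy classes and YFP- cells for Ins2-only, Gcg-only and Sst-only, giving 14 sums. edgeR 4.0.16 (R 4.3.3) was run with filterByExpr, TMM factors (0.813 and 0.986 for members, 0.503 and 0.636 for Ins2-only), glmQLFit and glmQLFTest with the experiment as a block, and p-values were adjusted by Benjamini-Hochberg over 10653 genes. A call needed a fold change above 0.5 in natural log. CPM after scaling divides by the TMM factor, so its sum differs between classes. The numbers 1 and 2 pair the sums since each experiment was prepared and sorted on its own from islets of several mice, and over 21 pairs of classes the experiment differences correlated at 0.0541 to 0.445 over genes. p-values measure the spread between 2 experiments of pooled islets.

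Background was read from cells with high Cd74, Col3a1 or Plvap, which should lack islet hormones. Doublets were marked with a caller modelled on DoubletFinder (pN of 0.25, pK of 0.3 and 0.06, marking 2% of each experiment), 120 cells in all. Intervals are exact binomial, or exact Poisson for UMIs (95%). A fold against a class at 0 used a floor of 3 UMIs per sum. Genes were named by the lists (β, γ, α, δ, acinar, ductal, endothelial, stromal, immune, glial and dividing cells, glucose sensing, islet factors, granins, insulin granule, receptors, immature β-cells, ER stress, disallowed genes, immediate early genes, reporter) and as the 10 with the largest log2 difference up and down, called and not overlapping between classes, with at least 10 CPM. Some genes of these lists are not reported here, and the lists were counted without them. Alternatives were DESeq2 1.42.0, its size factors, no filter, no block, each sum left out, both fractions summed, other cutoffs, no marked doublets, no high totals, thinning to 1000 UMIs and hormone genes out of the totals. Members above the highest non-endocrine cell, library totals without scaling and positions on scaled CPM were added after seeing the data. The first of these was set on Ppy UMIs per cell and does not allow for the larger totals of members. Sequences and places are from RefSeq for GRCm38.p6, the assembly behind mm10. Python 3.11.15, numpy 2.4.6, scipy 1.17.1, pandas 2.3.3, scikit-learn 1.9.0 and matplotlib 3.10.9 were used.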

Additional observations from a re-analysis of the deposited data

Results flagged for a closer look

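The 14 members of the YFP- libraries entered the test of single genes only where both sorted fractions were summed, an alternative, and several γ-cell genes stood in them with a Poisson interval wholly above that of the non-endocrine cells of the same library (called background). Values are unscaled CPM, and the cells of a library are not replicates. In the 11 YFP- members of experiment 1, Pyy read 20310 against 133 in the non-endocrine cells and 365 in Ins2-only cells. Tspan8 read 166 against 0.653 and 10.3, and Gc 71.2 against 1.31 and 12.7. Folr1 read 214 against 0 and 16.9. The interval of Etv1 (39.6, 12.9 to 92.4, from 5 UMIs) overlapped that of the non-endocrine cells (8.49, 4.52 to 14.5), and Etv1 is not counted among these genes there.

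In the 3 YFP- members of experiment 2, Pyy read 48220 against 347 in the non-endocrine cells and 387 in Ins2-only cells, and Etv1 read 141 against 24.5 and 10.2. Gc read 141 against 0.481 and 4.72, and Tspan8 106 against 18.8 and 20.4. These rest on 8 UMIs for Etv1 and for Gc and on 6 for Tspan8. YFP had 0 UMIs in the members of both YFP- libraries, and rtTA had 0 in experiment 1 and 2 in experiment 2.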

How the results depend on the processing

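Leaving out the experiment as a block (no replicate block) lowered the counts of called genes from 527 to 311 against Ppy-only, from 270 to 80 against Ins2-only and from 258 to 134 against Ppy+Sst+ cells, and moved them by less than 1.5 times in the other 2 comparisons. Without the block 14 of the 54 named genes called against Ppy-only cells and 22 of the 48 against Ins2-only cells lost their call, Folr1, Ier2 and Kcnk3 in both. With cells thinned to 1000 UMIs the counts were 113 (Ppy-only), 35 (Ins2-only), 211 (Ppy+Gcg+), 73 (Ppy+Sst+) and 455 (Ppy-only against Ins2-only, 2515 otherwise), with fewer UMIs in each sum. The β list then had 6 of 10 genes higher than in Ppy-only and 7 of 10 lower than in Ins2-only cells, and the γ list 2 of 5 higher than in Ins2-only cells. With a higher Ppy cutoff, which leaves fewer cells, 220, 312 and 102 genes were called against Ppy-only, Ppy+Gcg+ and Ppy+Sst+ cells. Against Ins2-only cells 439 were called with no filter on low counts and 166 without members of high totals.

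By library totals, chosen after seeing the data, the counts were 1828 against Ins2-only (1768 higher, 60 lower), 1137 against Ppy+Sst+ (81 higher, 1056 lower), 5021 for Ppy-only against Ins2-only (4523 higher, 498 lower), 462 against Ppy-only (315 higher, 147 lower) and 765 against Ppy+Gcg+ cells (232 higher, 533 lower), with all-gene medians of 0.637, −0.557, 0.694, −0.0684 and −0.304. DESeq2 called 187 against Ins2-only cells, 118 higher and 69 lower, where edgeR called 128 and 142.

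Leaving out 1 sum at a time gave 154 to 422 genes against Ppy-only, 62 to 305 against Ins2-only, 263 to 496 against Ppy+Gcg+, 74 to 172 against Ppy+Sst+ and 1144 to 2648 for Ppy-only against Ins2-only. The lowest counts came without the members of experiment 1 in the first 4 and without Ins2-only cells of experiment 1 in the last. Where a class is left with 1 sum, its spread is taken from the others. Against Ppy-only cells the counts were 332 without the members of experiment 2 and 342 without Ppy-only cells of experiment 1. Against Ins2-only cells they were 162 without the members of experiment 2 and 109 without Ins2-only cells of experiment 1. Against Ppy+Gcg+ cells 396 were called without those of experiment 1, and against Ppy+Sst+ cells 137 and 167 without those of experiment 1 and 2. Of 54 named genes called against Ppy-only cells 20 were called under every alternative and 0 reversed, and of 48 against Ins2-only cells 11 and 0. Pdx1 was among those lost.

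The position between both classes (72.3% for Ppy-only genes and 60.5% for Ins2-only genes) was 70.0% and 63.4% over both fractions, 69.6% and 58.5% without marked doublets, 80.2% and 72.2% without high totals, 53.1% and 43.3% with a higher Ppy cutoff, 74.2% and 63.7% with a higher Ins2 cutoff, 77.6% and 52.5% thinned, 70.2% and 53.8% over members above the highest non-endocrine cell, 65.5% and 53.8% with the hormone genes out of the library sizes, 57.0% and 97.8% with a log2 difference of at least 1 and 76.1% and 33.2% on CPM after scaling. The YFP- share fell from 0.689% to 0.229% without high totals. With a higher Ppy cutoff the YFP+ share fell from 4.13% to 1.89% and the YFP- share to 0.307%. The causes of these changes were not tested. Depth limits genes of few UMIs: the floor of 3 UMIs stood at 4.14 and 9.26 CPM after scaling in the members' sums.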

Other observations

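The genes furthest below Ppy-only cells by the rule on size were of low level. Lrrtm1, Lbp, Lgals1, Spats2l, Mfap5, Sertm1 and B3gnt9 had 0 UMIs in both sums of members, with bounds (3 UMIs per sum) of at most 1.90-fold for Lgals1 and 1.73-fold for Lrrtm1, so the size of these differences is not fixed by this depth. Basp1 read 0 and 3.09 CPM after scaling in members against 11.0 and 17.6 in Ppy-only cells, and Rab27b, a GTPase of granule release, 1.38 and 0 against 13.8 and 12.1. Pla2g1b, a pancreatic phospholipase, read 2.76 and 3.09 against 43.2 and 30.9 (log2 −3.73). Basp1 lost its call under 12 of 18 alternatives, Rab27b and B3gnt9 under 9 of 17, Lgals1 under 8 of 17 and Pla2g1b under 6 of 18. Lrrtm1 and Lbp lost it under 1 of 17.

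Of the α-cell list, Gc and Ttr were called lower in members than in Ppy-only cells, and Gc was called higher than in Ins2-only cells. The δ-cell and acinar lists had 0 calls in both comparisons by edgeR's test. Of the immune list, Cd79a was called higher than in Ppy-only cells (12.4 and 30.9 against 1.68 and 1.98) and, with Lyz2, lower than in Ins2-only cells (53.1 and 100.5 for Cd79a). Stromal genes summed to 0 and 6.06 CPM (unscaled) in members, glial genes to 6.72 and 0 and genes of dividing cells to 3.36 and 42.4.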
